A study of Rattus norvegicus with 15 samples.

Results

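Transcripts of the Toll-like receptor sensing machinery were followed in whole blood of rats with an induced deep venous thrombosis, a clot in a deep vein. The genes were chosen by their identifiers: Tlr2, Tlr4, Cd14 and Myd88, 4 genes in all. Of these, 3 were analysed among the 17599 features of the expression table: Tlr4 (ENSRNOG00000010522), Cd14 (ENSRNOG00000017819) and Myd88 (ENSRNOG00000013634). Tlr2 was not analysed here. The symbols were supplied with the choice of the genes, since the table carries identifiers alone.

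The animals were male Sprague-Dawley rats of 6 to 8 weeks and 250 to 300.0 g. There were 5 groups of 3 libraries: a sham group, placed at 0 h by the labels, and groups bled 1 h, 6 h, 12 h and 72 h after modelling. The sources used here do not say how the thrombus was made, what the sham procedure included or whether replicate numbers stand for separate animals, so p-values measure the spread between these libraries, which may be technical. The titles of 9 libraries (sham, 1 h, 72 h) carry the mark A&B and those of 6 libraries (6 h, 12 h) the mark C, and what these marks stand for is not stated. In a comparison of 6 h or 12 h with sham, 1 h or 72 h, time and title mark cannot be told apart. Comparisons of 1 h and 72 h with sham or with each other, and of 12 h with 6 h, are between libraries of the same mark.

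Toll-like receptors are membrane proteins with which innate immune cells detect microbial products and molecules released by damaged tissue. TLR4 binds bacterial lipopolysaccharide together with its partner MD-2, and CD14, a surface protein known best from monocytes, captures lipopolysaccharide and hands it to TLR4. MyD88 is the cytoplasmic adaptor that carries the signal from TLR4 and most other Toll-like receptors, and from the interleukin-1 receptor family, towards NF-kappa-B. In blood Tlr4 and Cd14 are known mainly from neutrophils and monocytes. Whole blood is a mixture, so fewer cells of a type and less RNA per cell cannot be told apart. The identifiers of blood cell marker genes and of the other genes of the pathway could not be paired with symbols, and the cell makeup of the samples, the identity of the tissue and their part in the results were not tested.

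Tlr4 and Myd88 had their lowest group means at the same time, 1 h. Neither low passed the test against sham (limma adjusted p = 0.691 for Tlr4 and 0.263 for Myd88). The 250 bases before the start of each gene are shown for Tlr4 and Myd88 and not for Cd14, and shared regulation was not tested. The sequences are from RefSeq on the GRCr8 assembly, at chr5:85160997-85161246 on the plus strand for Tlr4 and at chr8:127956231-127956480 on the minus strand for Myd88. Capitals mark matches on either strand to GAGGAA, the core bound by the myeloid factor PU.1, or to TGANTCA. The second pattern is looser than the AP-1 motif, since it allows any base at the centre.
Tlr4: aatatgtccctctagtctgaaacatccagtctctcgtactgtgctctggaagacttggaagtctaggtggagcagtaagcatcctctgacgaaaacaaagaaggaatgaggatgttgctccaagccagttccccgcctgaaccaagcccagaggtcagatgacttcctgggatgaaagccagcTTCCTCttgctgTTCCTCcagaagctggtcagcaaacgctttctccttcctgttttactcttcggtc
Myd88: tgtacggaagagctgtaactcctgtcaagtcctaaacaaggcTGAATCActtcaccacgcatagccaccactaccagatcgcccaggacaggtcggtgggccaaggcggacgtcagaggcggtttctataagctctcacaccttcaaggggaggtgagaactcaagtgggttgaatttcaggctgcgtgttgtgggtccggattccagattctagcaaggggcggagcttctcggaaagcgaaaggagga
The Tlr4 window held GAGGAA on the minus strand at 2 places, 67 to 62 and 55 to 50 bases before the start, and no TGANTCA. The Myd88 window held TGANTCA, which reads the same motif on both strands, 208 to 202 bases before the start, and no GAGGAA. The match there was TGAATCA, with A at the centre, and no stricter AP-1 pattern was searched. Of 33469 windows of this length in the same table, 23.3% held GAGGAA and 6.34% held TGANTCA. The NF-kappa-B consensus was found in 3.54% of all windows and in neither of these. A match is a description of the letters and no evidence of a bound site, and no binding was measured here.

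Library depth ran from 29.2 to 43.3 M recovered reads (mega-reads). Of these, 5 dominant features, each above 1% of reads on average, took 79.3 to 85.1%. The remaining 4.67 to 7.65 M reads per library set the precision for every other gene. Deposited values are normalised read counts, that is, reads divided by a factor for each library between 0.584 (12 h replicate 2) and 2.67 (12 h replicate 3). Tlr4 was counted from 4 to 195 reads per library and 506 in all, Cd14 from 26 to 219 and 1224 in all, and Myd88 from 89 to 1791 and 5227 in all. All 3 genes passed the filter on low values (at least 10 in at least 3 libraries). By mean normalised read count they lay at percentile 34.3 (Tlr4), 62.8 (Cd14) and 85.0 (Myd88) of the 11117 features tested. Levels are not corrected for transcript length, so they are compared between groups and not between genes.

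The differences from sham with the smallest p-values were a higher Cd14 level at 6 h and a lower Myd88 level at 1 h. The log2 difference, taken on normalised read count + 1 in limma with all 15 libraries in 1 fit, was 1.53 for Cd14 at 6 h and -1.44 for Myd88 at 1 h. Neither passed an adjusted p of 0.05 (Benjamini-Hochberg over all 11117 features): in limma the adjusted p was 0.0845 for Cd14 and 0.263 for Myd88. Over the 7 contrasts made, 0 of 21 gene-by-contrast results passed in limma, 7 had an unadjusted p under 0.05, edgeR on recovered reads called 0 and DESeq2 on recovered reads called 2. These 2 were Cd14 at 6 h against sham (DESeq2 adjusted p = 0.0145) and Cd14 at 12 h against 6 h (DESeq2 adjusted p = 0.0495). As background, limma called 0.135%, 0.486%, 0.072% and 0% of all features against sham at the 4 times in order, and 7.29%, 17.1%, 13.1% and 7.25% had an unadjusted p under 0.05. It called 0% between 12 h and 6 h, 0.018% between 72 h and 1 h and 1.84% for 6 h and 12 h against 1 h and 72 h, with 3.8%, 9.01% and 16.6% at an unadjusted p under 0.05. DESeq2, which removes low features by its own filter, called 6.91% at 6 h against sham and 0.135% between 12 h and 6 h. In simulated data limma recovered 0% of 2-fold and 4% of 4-fold changes at 6 h, so a gene not called may still differ.

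**Figure D1:**
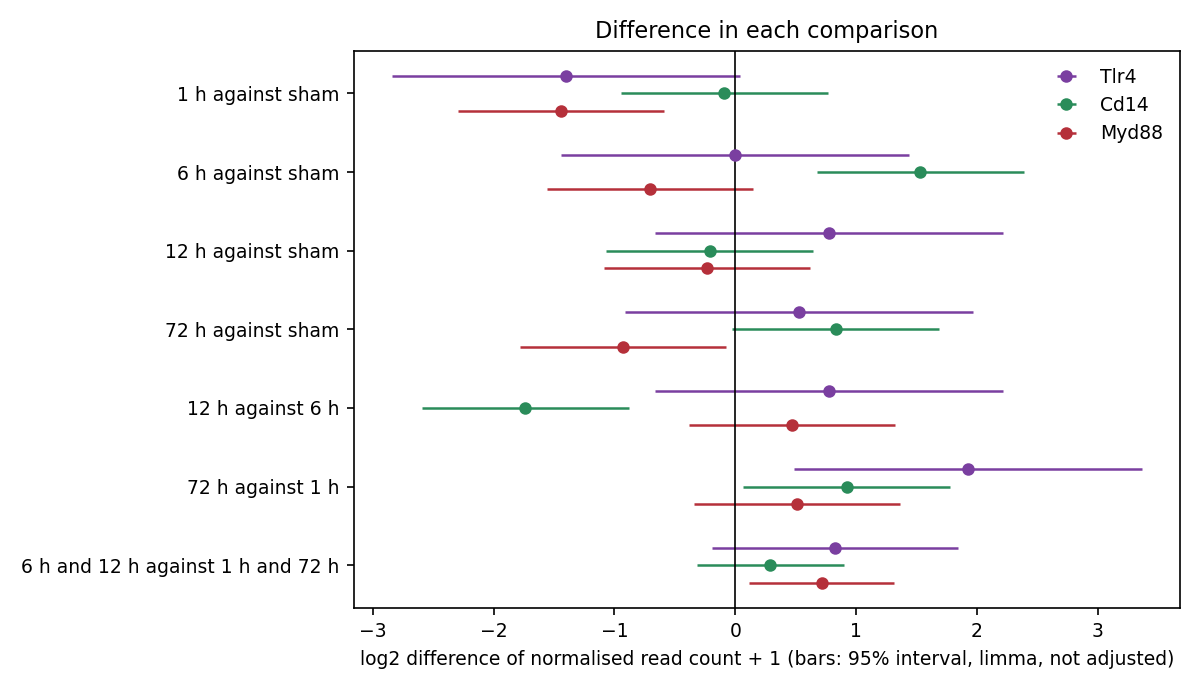
Log2 difference of normalised read count + 1 in each of the 7 comparisons (rows) for Tlr4, Cd14 and Myd88, with 95% intervals from limma that are not adjusted for the number of features. The Cd14 points at 6 h against sham (1.53) and at 12 h against 6 h (-1.74) lie on opposite sides of 0, and the Myd88 points lie below 0 at every time against sham.

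Tlr4, the lipopolysaccharide receptor itself, had the fewest reads of the 3 genes and the largest standard errors. Its normalised read counts in sham were 16.9, 16.4 and 29.7, from 17, 21 and 46 reads. At 1 h they were 5.30, 3.88 and 15.97, from 4, 4 and 17 reads. No 1 h library reached the sham range, as for 11.3% of all features tested, but the highest 1 h value (15.97) was next to the lowest sham value (16.4). The exact Poisson 95% interval, which covers counting error alone, was 9.30 to 25.6 for that 1 h library and 10.2 to 25.1 for that sham library, so these 2 are not distinguishable at this depth. Group means were 21.0 ± 7.55 in sham and 8.38 ± 6.61 at 1 h (SD, n = 3 each). The log2 difference was -1.40 (SE 0.682, 95% interval -2.84 to 0.04; limma adjusted p = 0.691).

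Tlr4 stood at 8.23, 33.9 and 28.6 in the 6 h libraries. The 12 h libraries gave 26.9, 22.3 and 72.9 and the 72 h libraries 65.8, 14.0 and 27.5. The last 3 times each held a library far from its group: 6 h replicate 1 was low, and 12 h replicate 3 and 72 h replicate 1 were high. Group means were 23.6 ± 13.5, 40.7 ± 28.0 and 35.8 ± 26.9 (SD, n = 3 each). In order of mean the groups ran 12 h, 72 h, 6 h, sham and 1 h, and the ranges of neighbours overlapped at every step but that from sham to 1 h. Against sham the log2 differences were 0.00 at 6 h, 0.77 at 12 h and 0.53 at 72 h, with limma adjusted p-values of 0.998, 0.651 and 0.888. Without 72 h replicate 1 the 72 h difference was -0.04, and without 12 h replicate 3, on which the first place of the 12 h mean rests, the 12 h difference was 0.26.

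The largest Tlr4 difference was that of 72 h from 1 h, 2 groups that share the mark A&B. It was 1.93 (SE 0.682, 95% interval 0.48 to 3.37), a 3.80-fold higher level at 72 h, with an unadjusted p of 0.0119 and an adjusted p of 0.387 in limma. The groups overlapped, since 14.0 at 72 h lies below 15.97 at 1 h. The fitted difference ran from 1.36 to 2.46 when single libraries were left out, and the adjusted p from 0.227 to 0.711 in limma.

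**Figure D2:**
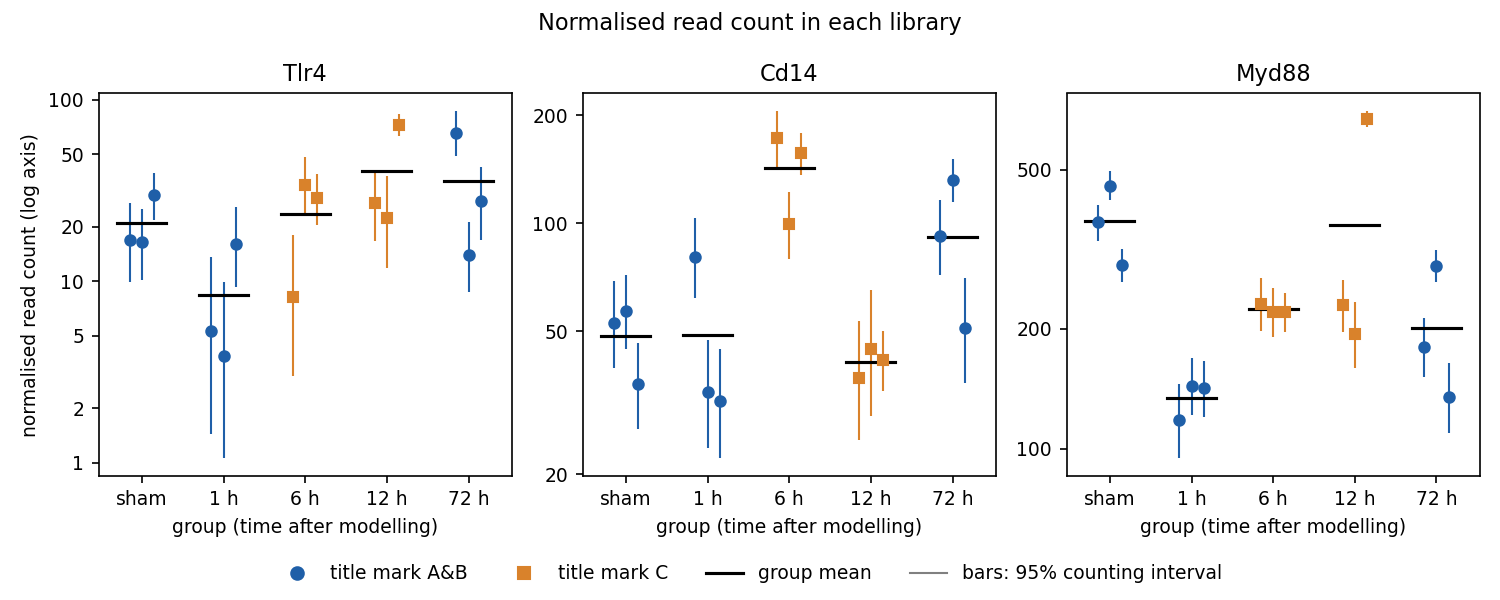
Normalised read count of Tlr4, Cd14 and Myd88 (log axes) in each of the 15 libraries by group, with replicates 1 to 3 from left to right; vertical bars are exact Poisson 95% intervals for counting error, horizontal lines are group means, and colour and shape give the title mark. Cd14 at 6 h lies at 99.3 to 173, above every sham library, and Myd88 at 1 h lies at 118 to 144, below every sham library.

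Cd14, the co-receptor, showed its highest level at 6 h. Its normalised read counts were 52.8, 57.0 and 35.6 in sham and 173, 99.3 and 157 at 6 h. All 3 libraries at 6 h lay above all 3 sham libraries, as did 13.7% of all features tested. Group means were 48.5 ± 11.4 in sham and 143 ± 38.6 at 6 h (SD, n = 3 each). The log2 difference was 1.53 (SE 0.405, 95% interval 0.67 to 2.39), a 2.89-fold higher level, with an unadjusted p of 0.00157 and an adjusted p of 0.0845 in limma. It ranked 207 of 11117 features by p. By edgeR, which called 0.423% of features, the adjusted p was 0.0818.

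Whether Cd14 at 6 h passed the test depended on the setting. The limma adjusted p was 0.0271 with the sham and 6 h libraries fitted alone, 0.0295 without 12 h replicate 3, 0.0242 with the library factor (log2) entered as a covariate and 0.0190 with array weights. These settings called more features overall too: 4.44%, 6.77%, 6.99% and 11% of those tested. With the 5 dominant features left out and all libraries set to equal totals, the Cd14 difference was 0.83 (limma adjusted p = 0.413). All features had a median difference of -0.73 from sham after this scaling, and Cd14 lay 1.55 above it. On that scale, in reads per M (mega-reads) outside the dominant features, sham stood at 10.7, 12.9 and 11.1 and 6 h at 22.1, 11.6 and 33.5, so that the groups overlapped through 6 h replicate 2.

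At 12 h the Cd14 values were low: 37.1, 44.5 and 41.5, with a mean of 41.0 ± 3.75 (SD, n = 3). Each 12 h library lay below each 6 h library, which held for 2.88% of all features tested. On the equal-totals scale the groups overlapped, at 4.87, 4.74 and 14.5 reads per M at 12 h and 22.1, 11.6 and 33.5 at 6 h, through 12 h replicate 3 and 6 h replicate 2. Both groups carry the mark C. The log2 difference was -1.74 (SE 0.405, 95% interval -2.60 to -0.88), or a ratio of 0.299, with an unadjusted p of 0.000520 and an adjusted p of 0.864 in limma. By p it ranked 5 of the 11117 features in that comparison, in which limma called 0 features and 423 had an unadjusted p under 0.05. Leaving out single libraries kept the difference between -1.98 and -1.58, with a lowest limma adjusted p of 0.217. With array weights it was called (limma adjusted p = 0.0212, with 1.73% of features called).

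At the other times Cd14 varied by library. At 1 h it stood at 80.8, 33.9 and 31.9, where replicate 1 was above all sham libraries and the others were below all of them. Its log2 difference was -0.09 (limma adjusted p = 0.977), and its sign turned to 0.14 without 1 h replicate 3. At 72 h the values were 92.1, 132 and 50.9, with a mean of 91.6 ± 40.4 (SD, n = 3), a log2 difference of 0.83 from sham (95% interval -0.03 to 1.69; limma adjusted p = 0.710). Against 1 h the 72 h level differed by 0.92 (limma adjusted p = 0.499). In order of mean the groups ran 6 h, 72 h, 1 h, sham and 12 h, and the ranges of all neighbours in that order overlapped.

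Myd88, the adaptor, lay below the lowest sham value in 11 of the 12 libraries taken after modelling, by normalised read count. The share of all features with such a count was not computed, so the count cannot be set against background. All 12 libraries were set against the same 3 sham libraries, and 72 h replicate 2 (287) lay next to the lowest sham value (288). On the equal-totals scale 72 h replicate 2 also lay above the lowest sham library, at 75.7 against 74.5 reads per M. The normalised read counts of Myd88 were 369, 456 and 288 in sham and 118, 144 and 142 at 1 h. The 1 h libraries lay close together and below all sham libraries, which held for 11.3% of all features tested. Group means were 371 ± 83.9 in sham and 134 ± 14.4 at 1 h (SD, n = 3 each). The log2 difference was -1.44 (SE 0.403, 95% interval -2.29 to -0.59), or a ratio of 0.369, with an unadjusted p of 0.00246 and an adjusted p of 0.263 in limma. Both groups carry the mark A&B, and the difference ranked 103 of 11117 features by p.

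The difference at 1 h kept its sign under all 30 alternatives run, between -1.88 and -1.16, while its limma adjusted p ranged widely. It was 0.0200 with the sham and 1 h libraries fitted alone, 0.0159 without 12 h replicate 3 and 0.00382 with array weights, settings that called 1.01%, 0.909% and 3.17% of features. It was 0.940 without sham replicate 2. On the equal-totals scale Myd88 stood at 74.5, 103 and 89.6 reads per M outside the dominant features in sham and at 16.6, 29.0 and 28.2 at 1 h. The groups stayed apart there, with a difference of -1.88 where the median of all features was -0.40 (limma adjusted p = 0.780).

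At 6 h Myd88 was nearly equal in the 3 libraries by normalised read count, at 230, 220 and 220 (mean 223 ± 6.10, SD, n = 3). All 3 lay below sham, as did 14.2% of all features tested. On the equal-totals scale they were not nearly equal, at 29.5, 25.8 and 46.9 reads per M. By normalised read count Myd88 had a log2 difference of -0.71 from sham (95% interval -1.56 to 0.15; limma adjusted p = 0.386). At 72 h it stood at 180, 287 and 135 (mean 201 ± 78.2, SD, n = 3), with a log2 difference of -0.93 (95% interval -1.78 to -0.08), an unadjusted p of 0.0347 and an adjusted p of 0.672 in limma. Although no 72 h library reached the lowest sham value, as for 9.85% of features, the highest 72 h value (287) and the lowest sham value (288) had overlapping 95% counting intervals (261 to 315 and 262 to 316).

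The 12 h group was split. Myd88 stood at 229 and 194 in replicates 1 and 2, below sham, and at 670 in replicate 3, from 1791 reads, above every sham library. The mean of 364 ± 265 (SD, n = 3) therefore describes no single library, and the log2 difference of -0.23 from sham (limma adjusted p = 0.829) became -0.79 without 12 h replicate 3 (limma adjusted p = 0.0929) and 0.10 without 12 h replicate 2. Replicate 3 is the library with the highest scaling factor, the largest number of features with reads (14524) and the highest Tlr4 value (72.9), while its Cd14 value (41.5) lay between those of the other 12 h libraries. In order of mean Myd88 ran sham, 12 h, 6 h, 72 h and 1 h, with overlapping ranges at every step.

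In tests over several groups at once, 0 of the 3 genes passed. Among sham, 1 h and 72 h, which share the mark A&B, limma's F test had unadjusted p-values of 0.0321 for Tlr4, 0.0692 for Cd14 and 0.00807 for Myd88, with adjusted p-values of 0.503, 0.606 and 0.342. Of all features 0.009% passed that test. Over the 5 groups the adjusted p-values in limma were 0.318 for Tlr4, 0.0934 for Cd14 and 0.229 for Myd88, where 1.11% of features passed. Between the title marks, 6 h and 12 h averaged above 1 h and 72 h by 0.82 for Tlr4, 0.29 for Cd14 and 0.71 for Myd88 on the log2 scale, with limma adjusted p-values of 0.411, 0.657 and 0.215. When the library factor entered as a covariate, the Myd88 difference was 0.65 (limma adjusted p = 0.0194), where 13.2% of features passed. Both values rested in part on 12 h replicate 3. Without that library the Myd88 difference was 0.44 (limma adjusted p = 0.198), and 0.52 with the covariate (limma adjusted p = 0.0823), so that the call was lost. This contrast is the one that time and title mark share in full.

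Ratios between genes within a library were computed to set the time courses against each other. The factor does not divide out in full, since 1 was added to each value, which matters most for low values such as those of Tlr4. The log2 ratio of Cd14 to Myd88 also differed with the factor, by -0.63 per unit of log2 factor within groups. Ratios carry no correction for length, so a change between groups can be read and the level cannot, and no test was made. The log2 ratio of Cd14 to Myd88 was -2.78, -2.98 and -2.98 in the sham libraries. It was -0.41, -1.14 and -0.48 at 6 h and -0.96, -1.12 and -1.39 at 72 h, and all 6 of these lay above the sham range. At 1 h the ratio was -0.54, -2.05 and -2.12, also above sham in each library, and at 12 h it was -2.59, -2.10 and -3.98, on either side of sham, the lowest value being that of the library with the highest factor. As background, the ratio to Myd88 lay above sham in every library for 72.4% of all other features tested at 1 h, 36.5% at 6 h and 32.6% at 72 h, so that a ratio above sham is common among features at these times. Group means (± SD, n = 3 each) were -2.91 ± 0.116 in sham and -1.16 ± 0.216 in the 72 h group. The 1 h, 6 h and 12 h groups had means of -1.57 ± 0.892, -0.68 ± 0.401 and -2.89 ± 0.977. At 72 h neither the Cd14 level nor the Myd88 level passed the test against sham (limma adjusted p = 0.710 and 0.672).

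Tlr4 followed neither partner closely in these ratios. The log2 ratio of Tlr4 to Myd88 averaged -4.11 ± 0.774 in sham and -4.07 ± 0.920 at 1 h (SD, n = 3 each), a difference within the SD of either group. With 5 added to each value in place of 1, these means were -3.87 ± 0.703 and -3.48 ± 0.633. With 1 added, the ratio was -3.05, -3.06 and -3.18 in the 12 h libraries, where Tlr4 and Myd88 were both high in replicate 3. At 72 h it ran from -4.26 to -1.44. The ratio of Tlr4 to Cd14 ran from -1.74 to -0.25 in sham and from -4.24 to -1.53 at 6 h, and the ranges overlapped.

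**Figure D3:**
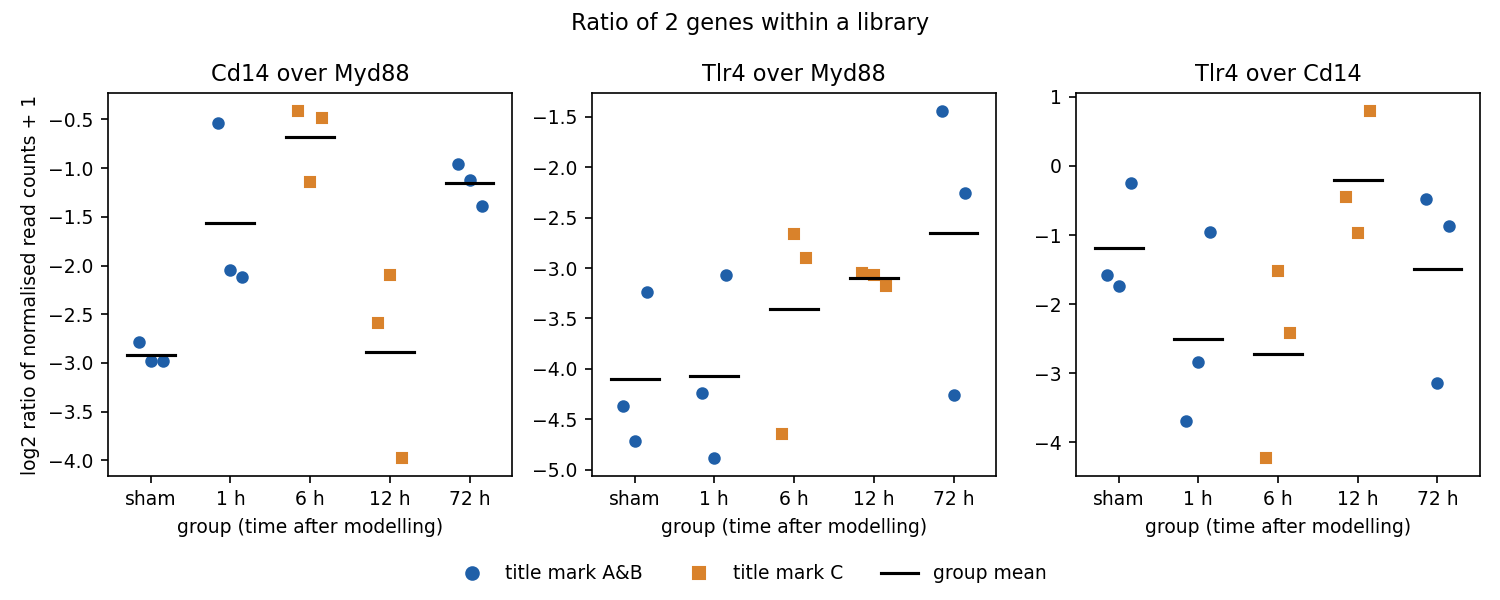
Log2 ratio of the normalised read counts + 1 of 2 genes within each library, by group, with replicates 1 to 3 from left to right and the group mean as a line; the 3 vertical axes differ. For Cd14 over Myd88 the sham libraries lie between -2.98 and -2.78 and the 72 h libraries between -1.39 and -0.96.

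Across the 15 libraries the 3 genes were only loosely related, which is described here without a test because libraries share groups, title mark and scaling. Pearson's r of log2 values was 0.44 between Tlr4 and Myd88, -0.05 between Tlr4 and Cd14 and -0.02 between Cd14 and Myd88. Among the 8917 other annotated features, Myd88 took rank 638 in likeness to Tlr4 by Pearson's r. The rank was 1433 by Spearman's rho (0.28) and 1280 with the slope on the log2 library factor removed (r = 0.34). Tlr4 took rank 1354 in likeness to Myd88 by Pearson's r. The feature most like Tlr4 was ENSRNOG00000059461, with r = 0.83 and Spearman's rho = 0.84, and it took rank 4 once the slope on the log2 library factor had been removed. The feature most like Cd14 reached r = 0.75 and the one most like Myd88 r = 0.95. No symbol was paired with these identifiers.

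Myd88 values followed the library factor, and those of Cd14 did not detectably. The slope within groups, in log2 units per unit of log2 factor, was 0.66 for Myd88 (SE 0.145, limma adjusted p = 0.00190), 0.49 for Tlr4 (SE 0.379, limma adjusted p = 0.319) and 0.03 for Cd14 (SE 0.228, limma adjusted p = 0.918). As background 33.7% of all features had a slope past adjusted p 0.05, and the median slope was 0.21. Pearson's r between log2 Myd88 and the log2 factor was 0.70 over 15 libraries and 0.53 without 12 h replicates 2 and 3, the libraries farthest from the median factor. It was 0.66 within mark A&B (9 libraries) and 0.87 within mark C (6 libraries), where Spearman's rho was 0.43. With the factor as a covariate the Myd88 difference at 1 h was -1.16 (SE 0.253, limma adjusted p = 0.0504), where 0.423% of features passed. For Tlr4, r over 15 libraries was 0.30, and 0.03 without the same 2 libraries. Within the title marks it differed, at -0.05 in the 9 A&B libraries and 0.75 in the 6 C libraries (Spearman's rho 0.89).

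**Figure D4:**
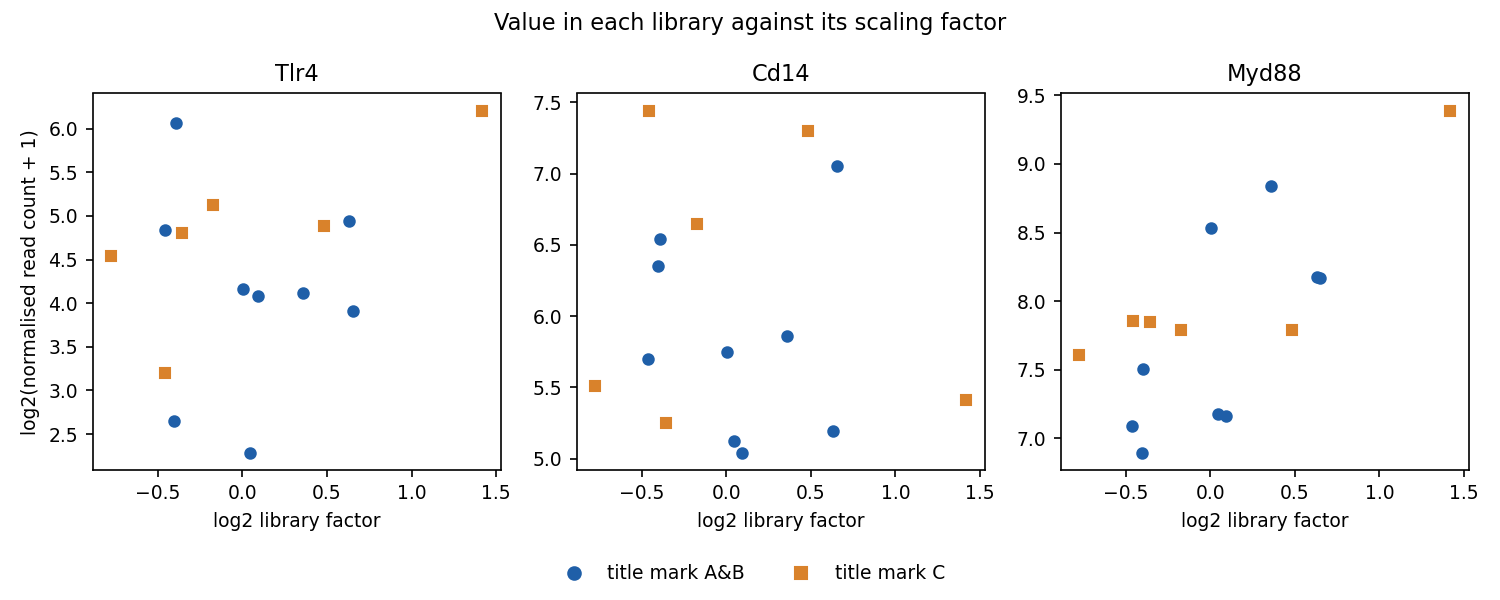
Log2(normalised read count + 1) of Tlr4, Cd14 and Myd88 against the log2 scaling factor of each of the 15 libraries, with colour and shape for the title mark. Myd88 is higher in libraries with a larger factor (r = 0.70), and the library at the far right, 12 h replicate 3, holds the highest Tlr4 and Myd88 values.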

How the data were processed

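RNA sequencing of whole blood, drawn into PAXgene tubes per the labels' protocols, gave 15 libraries. Per the submitters' processing notes, Bowtie 0.12.2 and Rnor_6.0 were used, with no role stated. Counting tool, strand setting and annotation: not given in the sources used here, so reads shared with overlapping or similar genes cannot be told apart. The deposited values are a signal: reads that the authors scaled by a per-library factor, as inferred from the numbers themselves (100% within 0.01 of a whole multiple of the library's step). In sham replicate 1 that step is close to 1, which makes the inference from whole multiples alone weaker. Factors were also recomputed as the median ratio of a library's recovered reads to their geometric mean over libraries. These differed from the inferred factors by at most 2.54e-08%.

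The 11117 features that reached 10 in 3 or more libraries entered limma 3.58.1 (trend, robust; R 4.3.3) as log2(value + 1), with two-sided tests. The added 1 draws changes of low genes towards 0, but differences on this scale were not always smaller than those from counts. For Tlr4 at 1 h against sham the difference was -1.40, -1.47 with 0.5 added, -1.30 with edgeR and -1.31 with DESeq2. edgeR 4.0.16 and DESeq2 1.42.0 on recovered reads were alternatives, beside other scalings, filters, pseudocounts, weights and each library left out. Scripts were tested on simulated data. The reference table matched 0 identifiers, so the 6 pathway lists and the cell type markers were not tested. The naming rule covered the 4 genes and, lacking symbols, the feature most like Tlr4 and, had Tlr2 been analysed, the one most like Tlr2. Genes, lists and alternatives were chosen with earlier results of these data known.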

Additional observations from a re-analysis of the deposited data

How the results depend on the processing

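Limma called 0 of the 3 genes in each of 9 comparisons, and the count stayed at 0 in 246 of 267 recomputed counts over 30 alternatives. It was 1 at 1 h (Myd88) with the compared libraries alone, with array weights, without 12 h replicate 3, and without that library with the library factor as a covariate. It was 1 at 6 h (Cd14) under the same 4 settings, with DESeq2 and with the library factor as a covariate. It was 1 at 12 h against sham (Myd88) with array weights, 1 at 12 h against 6 h (Cd14) with DESeq2 and with array weights, and 1 for 6 h and 12 h against 1 h and 72 h (Myd88) with the library factor as a covariate. Among sham, 1 h and 72 h it was 1 (Myd88) with array weights and with both settings that leave out 12 h replicate 3. Over the 5 groups it was 2 (Cd14 and Myd88) with those 3 settings and with the library factor as a covariate. Over leaving out single libraries the counts ran from 0 to 1 at 1 h, at 6 h and among sham, 1 h and 72 h, and from 0 to 2 over the 5 groups. The cause of these changes was not tested.

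Signs turned for 5 differences, none of which passed in the unweighted limma test of all 15 libraries. Cd14 at 1 h (-0.09) went to 0.000716 with edgeR, 0.000462 with DESeq2, and ran from -0.52 to 0.14 over leaving out single libraries (above 0 for sham replicate 2 and for 1 h replicates 2 and 3). Tlr4 at 6 h (0.00) went to 0.17 with edgeR (0.173) and DESeq2 (0.171), 0.0275 with a pseudocount of 5, 0.0806 with quantile normalization, 0.18 with the factor as a covariate, 0.27 with array weights, and 0.0142 with the covariate and 12 h replicate 3 left out. Over leaving out single libraries it ran from -0.36 to 0.60 (above 0 for sham replicate 3 and 6 h replicate 1). In the same way Tlr4 at 72 h ran from -0.0383 (72 h replicate 1 left out) to 1.04, Myd88 at 12 h from -0.79 to 0.10 (12 h replicate 2 left out), and Myd88 between 12 h and 6 h from -0.0846 (12 h replicate 3 left out) to 0.81.

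With the replicate number as a block, 0 of the 3 genes were called in each comparison, and Cd14 at 6 h had a limma adjusted p of 0.0656. The numbers share no stated animal or day, 14 of 30 same-numbered pairs of libraries deviated together with r over 0.1 (-0.328 to 0.448), and 9 of 15 libraries were most like their own number. Under the block the features called at 6 h against sham went from 54 to 123. DESeq2 was not run for the 2 tests over several groups. Few reads limit Tlr4, with 4 in each of 2 libraries at 1 h.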
